A study of Mus musculus with 12 samples.

Results

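The 9 genes described here encode proteins of the extracellular matrix and inhibitors of the enzymes that cut it: the tissue inhibitors of metalloproteinases Timp1, Timp2 and Timp3, the basement membrane collagen chains Col4a1 and Col4a2, fibronectin (Fn1), the type I collagen chain Col1a1, and the matricellular proteins Sparc and Thbs1. They were taken by symbol from the known genes of a deposited table of 33625 genes. RNA had been sequenced from wild-type MODE-K cells, an epithelial line from mouse small intestine, in 4 groups of 3 libraries. The control was collected at 0 h without irradiation, and the other groups were collected 48 h after 4 Gy, 24 h after 12 Gy and 48 h after 12 Gy of gamma rays from a 60Co source at 87 cGy per min. Pyroptosis, an inflammatory cell death in which the membrane ruptures, is the subject named in the series title, and the 9 genes were compared between doses and times. Because the control was collected at 0 h, irradiation and time in culture cannot be told apart in any comparison with control. All groups came from the same cell line, and the labels do not say that the 3 libraries of a group were separate cultures, so each p-value reflects only how these libraries differ among themselves, a spread that may be technical.

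The extracellular matrix is the protein scaffold around cells. Beneath an epithelium it forms the basement membrane, a sheet built on a network of type IV collagen and laminin, while fibronectin and type I collagen make up fibrils of the underlying tissue. Metalloproteinases and other proteases cut these proteins, and TIMPs bind the metalloproteinases and block them. Sparc and thrombospondin-1 are matricellular proteins, which are secreted into the matrix and alter how cells attach to it rather than bearing load. In the intestine, changes in matrix deposition are a known part of late radiation injury.

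Values are CPM (a gene's reads relative to the library's total) after scaling the libraries by TMM, as mean ± SD over 3 libraries, and fold changes are on the log2 scale with the standard error (SE). Libraries held 3616416 to 4831641 assigned reads. Loci assembled by the authors outside the known genes (new loci) took 19.83 to 21.67% of reads in the controls, 15.12 to 16.87% after 4 Gy, 11.88 to 11.99% at 24 h and 14.04 to 15.15% at 48 h after 12 Gy. With all genes scaled together, the median known gene stood at 0.20 at 48 h after 12 Gy, 0.23 at 24 h and 0.14 after 4 Gy against control, and at -0.06 for 48 h against 24 h and 0.05 for 12 Gy against 4 Gy. In a second fit, with scaling and tests restricted to the known genes, all 5 medians lay within 0.01 of 0. Each change below is to be read against those medians, and the value with known genes alone is given where it alters a call. In bulk RNA, fewer cells of a kind and less RNA per cell cannot be told apart.

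The label of small-intestinal epithelium was checked against its markers. Of the defining epithelial genes, Epcam and Cdh1 (adhesion molecules) and Vil1 (the microvillus protein villin) had 0 or 1 read in each of the 12 libraries, Krt8 had 0 to 2 and Krt18 had 5 to 62. The 18 fibroblast and mesenchymal markers were mixed. The intermediate filament gene Vim had 1884 to 9227 reads, S100a4 had 756 to 2819 and Col1a2 had 648 to 1228. Twist1 had 54 to 114, Cdh2 had 40 to 105, Zeb2 had 34 to 56, Zeb1 had 9 to 30 and Snai2 had 4 to 21. Pdgfrb had 2 to 14, Pdgfra had 1 to 9, Tagln had 0 to 12, Dcn had 0 to 4 and Col3a1 had 0 to 2. Thy1 and Acta2 had 0 or 1, and Lum, Dpt and Postn had none. The endothelial genes Pecam1 and Cdh5 had 0 or 1 read, and Ptprc, the pan-leukocyte gene, had 0. Of the defining epithelial transcripts, Epcam, Cdh1, Vil1 and Krt8 were thus nearly absent, while Krt18 had reads in every library. Of the other epithelial markers, the keratin genes Krt20 and Krt7 had 16 to 59 and 3 to 19 reads, and the rest had at most 9. The cells are called MODE-K cells below.

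In control cells the 9 genes covered nearly the whole range of expression. Divided by transcript length, Timp1 was first at 490 CPM per kb, followed by Sparc at 51.5, Fn1 at 30.5, Timp2 at 21.9 and Col4a1 at 3.87 CPM per kb. Col1a1 and Col4a2 came next at 1.47 and 1.38 CPM per kb, and their libraries overlapped. Timp3 and Thbs1 were last at 0.219 and 0.0146 CPM per kb. Neighbours above Col1a1 did not overlap in control. After 4 Gy and at 48 h after 12 Gy the values per kb of Fn1 and Timp2 overlapped, and those of Col1a1 and Col4a2 did so too. Timp1 kept the first place per kb in all 4 groups, but without division by length Fn1 was ahead of it at 48 h after 12 Gy, at 316 against 211 CPM. In control the order without that division was Timp1 (433 CPM), Fn1 (254 CPM), Sparc (118 CPM) and Timp2 (81.2 CPM), so Sparc and Fn1 changed places. The sources do not settle whether reads came from fragments or from whole transcripts, so neither scale is preferred. Among 13209 known genes with reads in control, the CPM of Timp1 lay at the percentile 98.3, that of Fn1 at 96.8, that of Col1a1 at 49.8 and that of Thbs1 at 3.47.

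**Figure D1:**
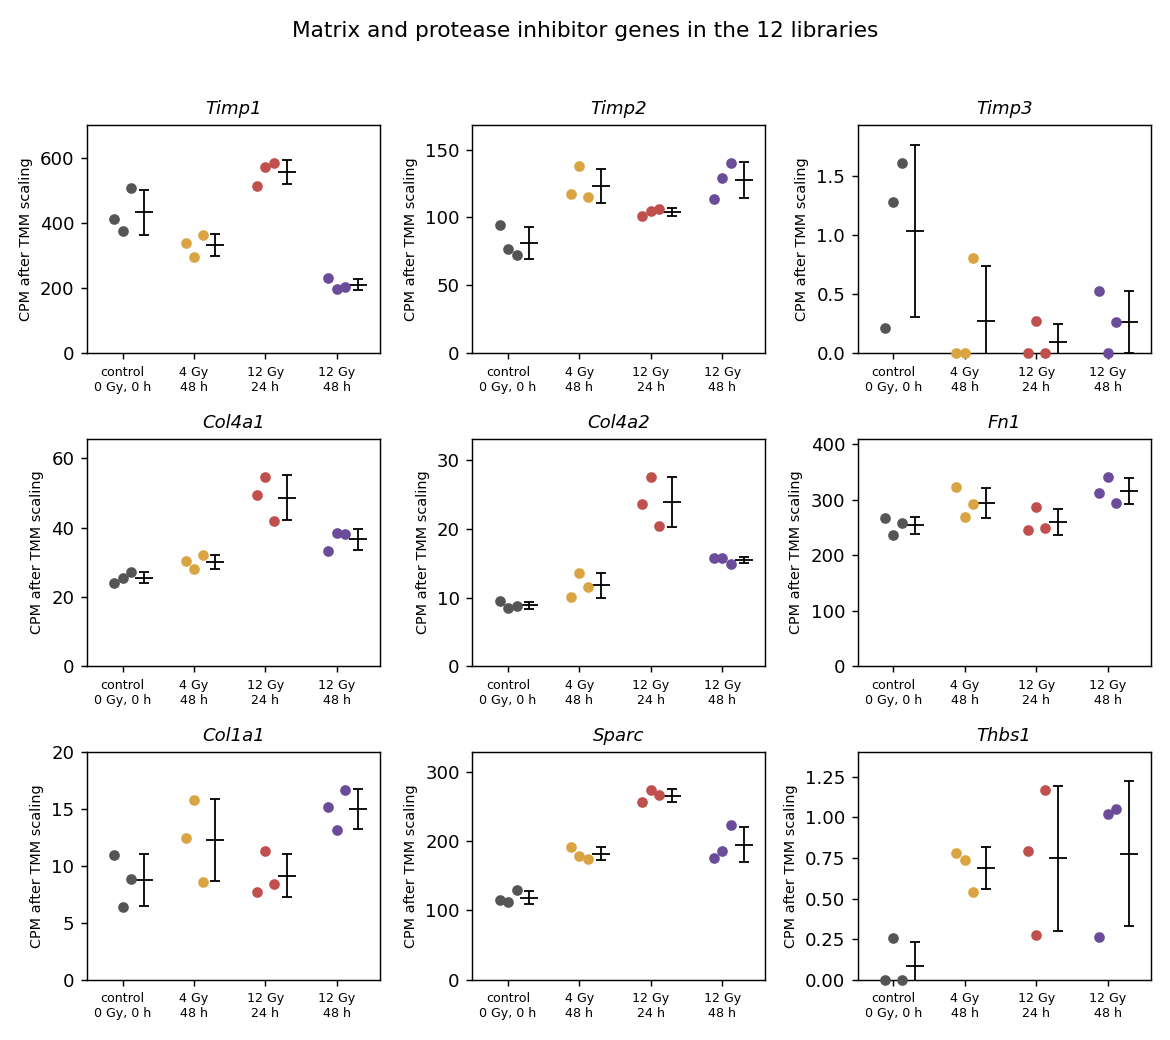
CPM after TMM scaling (vertical axes, linear from 0) of the 9 genes in each library (points) of the 4 groups (horizontal axes), with the mean and SD of each group (black, lower bars end at the axis). Timp1 was highest at 24 h after 12 Gy (515 to 584 CPM) and lowest at 48 h (198 to 230 CPM), while Sparc, Col4a1 and Col4a2 were highest at 24 h.

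Of the 9 genes, 7 passed the filter on low counts and were tested, and Timp3 and Thbs1 did not. At 48 h after 12 Gy 6 of the 7 were higher than in control and 1, Timp1, was lower, where 12.9% of the 15086 tested genes were called higher and 20.2% lower. In the fit to known genes alone 3 of 7 were higher (Sparc, Timp2 and Col4a2) and 1 lower, against 6.76% and 8.04% of 9816 genes. At 24 h after 12 Gy 5 were higher and 0 lower, against 18.5% and 29.4% of all tested genes, and with known genes alone 3 were higher (Sparc, Col4a1 and Col4a2) and 0 lower, against 9.15% and 7.91%. After 4 Gy 2 were higher (Sparc and Timp2) and 1 lower, against 4.53% and 13% of all tested genes, and with known genes alone 1 was higher (Sparc) and 1 lower, against 0.754% and 0.57%. The genes were proposed with earlier results of these libraries known, so these counts are a description. The 3 comparisons with control share the same 3 control libraries.

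Between the irradiated groups, 1 of the 7 was higher and 4 were lower at 48 h than at 24 h after 12 Gy, against 20.6% and 11.4% of all tested genes. The split with known genes alone was 3 higher and 3 lower, against 11.1% and 12.6%. Sparc, Timp1 and Col4a2 were the genes lower in both fits, and Col1a1 was higher in both. Timp2 and Fn1 were higher with known genes alone, while Col4a1 was lower in the fit to all genes. For 12 Gy against 4 Gy at 48 h 0 genes were higher and 1, Timp1, was lower in both fits. The shares over all genes were 2.19% and 2.49%, and with known genes alone they were 2.91% and 3.22%.

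**Figure D2:**
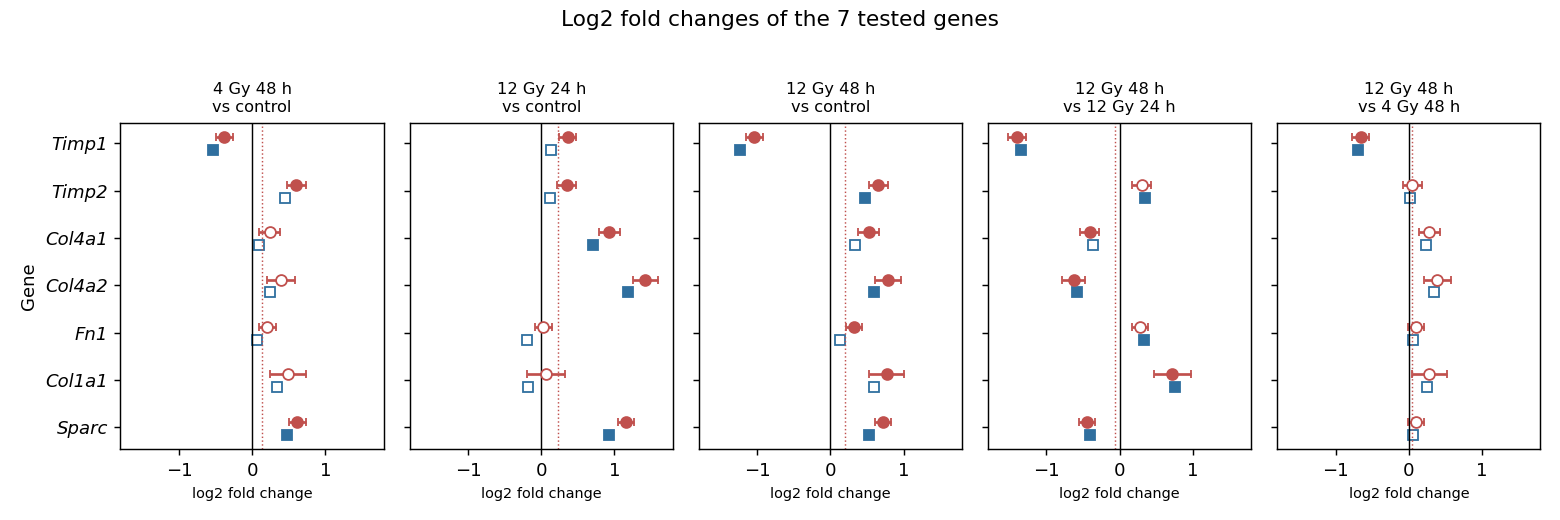
Log2 fold change (horizontal axes) of the 7 tested genes in 5 comparisons, from the fit to all genes (red circles with SE) and with known genes alone (blue squares). Filled symbols passed an adjusted p of 0.05, the solid line is 0 and the dotted line is the median known gene in the fit to all genes. Timp1 lies left of 0 in 4 of the 5 comparisons, and Col4a2 and Sparc lie farthest right at 24 h after 12 Gy.

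Timp1 encodes a secreted inhibitor of most matrix metalloproteinases, and the gene lies at chrX:20870166-20874735 (GRCm38, forward strand, 6 exons) inside Syn1, a neuronal gene on the other strand that had 0 to 2 reads per library. Timp1 had 414, 375 and 509 CPM in the 3 controls and 338, 297 and 362 CPM after 4 Gy. It had 515, 573 and 584 CPM at 24 h and 230, 198 and 204 CPM at 48 h after 12 Gy. On this scale none of these 4 groups overlapped another, with 24 h after 12 Gy highest, then control, then 4 Gy, and 48 h after 12 Gy lowest. As CPM without TMM scaling, control (399, 388 and 503) overlapped 24 h after 12 Gy (490, 543 and 530). Timp1 fell by 1.04 (SE 0.12) at 48 h after 12 Gy against control, with an adjusted p of 1.34e-05 and a fold of 0.487. It fell by 1.40 (SE 0.12) between 24 h and 48 h after 12 Gy, with an adjusted p of 1.02e-06. At 24 h against control it rose by 0.36 (SE 0.12, adjusted p = 0.0177) in the fit to all genes, beside a median of 0.23 for known genes. With known genes alone the change was 0.13 (adjusted p = 0.503), and with total-count scaling it was 0.27 (adjusted p = 0.0552).

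Timp1 was also lower at 48 h after 4 Gy than in the 0 h control, a call that passed in 8 of 12 alternatives. After 4 Gy it fell by 0.38 (SE 0.12, adjusted p = 0.0358), and with known genes alone by 0.53 (adjusted p = 0.0347). This call was lost without control replicate 3 (-0.21, adjusted p = 0.248), without 4 Gy replicate 1 (-0.38, adjusted p = 0.0926) or replicate 2 (-0.30, adjusted p = 0.166), and without the filter on low counts (-0.31, adjusted p = 0.0769). At 48 h Timp1 fell by 0.66 (SE 0.12, adjusted p = 0.00849) from 4 Gy to 12 Gy. Without replicate 2 of the 12 Gy group at 48 h that difference was -0.61 (adjusted p = 0.0609).

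The stretch just upstream of the Timp1 start and a short site just after it are shown because Timp1 changed the other way from the other tested genes at 48 h after 12 Gy. They are from RefSeq on GRCm38.p6, forward strand, 5′ to 3′, at chrX:20869916-20870165 and chrX:20870181-20870209. Capitals mark a GC box (GGGCGG or its reverse complement CCGCCC) in the first and an AP-1-like site (TGAGTAA or its reverse complement) in the second.
Timp1 upstream: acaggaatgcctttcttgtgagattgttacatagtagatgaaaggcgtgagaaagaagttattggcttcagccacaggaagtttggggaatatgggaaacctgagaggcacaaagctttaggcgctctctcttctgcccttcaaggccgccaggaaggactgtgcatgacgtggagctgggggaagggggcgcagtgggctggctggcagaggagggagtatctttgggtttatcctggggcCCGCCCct
Timp1 site: cggtgggtggaTGAGTAAtgcgtccagga

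The AP-1-like letters begin at base 27, counting the start as base 1, and the GC box begins 8 bases before the start. In windows from 250 bases before to the first bases after a start, searched on both strands, 2.64% of 32544 distinct RefSeq windows held TGAGTAA, 5.19% held the standard AP-1 site TGAGTCA, 35.9% held a GC box and 37.4% held a CCAAT box. RefSeq windows were matched for 6 of the 9 genes (Sparc, Timp1, Timp2, Timp3, Col4a1 and Col4a2). None of the 6 windows held TGAGTCA, and Timp1's alone held TGAGTAA. The Timp2 window held 1 GC box and 1 CCAAT box, as the Timp1 window did, and the Sparc window held neither. These matches describe letters and are not evidence of binding.

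Timp2, at chr11:118301069-118355740 on the reverse strand, encodes an inhibitor that also takes part in activating pro-MMP2 at the cell surface. Timp2 had 94.6, 76.6 and 72.3 CPM in control, 117, 138 and 115 CPM after 4 Gy, 101, 105 and 106 CPM at 24 h and 114, 129 and 140 CPM at 48 h after 12 Gy. With the libraries scaled on all genes, every irradiated library was above every control library. Timp2 rose by 0.65 (SE 0.13, adjusted p = 0.00111) at 48 h after 12 Gy, and with known genes alone by 0.47 (adjusted p = 0.013). After 4 Gy the change was 0.60 (SE 0.13, adjusted p = 0.00399), and 0.45 (adjusted p = 0.0649) with known genes alone. At 24 h it was 0.35 (SE 0.13, adjusted p = 0.0316), and 0.12 (adjusted p = 0.533) with known genes alone and 0.26 (adjusted p = 0.102) with total-count scaling. The 4 Gy and 12 Gy groups at 48 h overlapped, with a difference of 0.05 (SE 0.13, adjusted p = 0.869). Between 24 h and 48 h after 12 Gy the difference was 0.30 (SE 0.13, adjusted p = 0.0854), but total-count scaling (0.48, adjusted p = 0.00764) and the fit to known genes alone (0.35, adjusted p = 0.0394) each called it higher. The gene Cep295nl lies within Timp2 on the same strand and had 1 to 7 reads per library.

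A ratio of the reads of 2 genes in the same library does not depend on how libraries are scaled. Timp1 had 4.38, 4.9 and 7.04 reads per Timp2 read in the controls and 5.12, 5.44 and 5.52 at 24 h after 12 Gy, where the groups overlapped. The ratio was 2.9, 2.16 and 3.13 after 4 Gy and 2.02, 1.53 and 1.46 at 48 h after 12 Gy. All 6 libraries taken at 48 h were below all 6 others, and the 12 Gy libraries were below the 4 Gy libraries. The mean ratio went from 5.44 ± 1.41 (SD, n = 3) in control to 1.67 ± 0.305 (SD, n = 3) at 48 h after 12 Gy, a geometric fold of 3.23. The two-sided exact permutation p was 0.1 for n = 3 against 3, the smallest that this design allows, and 0.133 after adjustment over 20 such ratio tests. The ratios were chosen after the values had been seen.

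**Figure D3:**
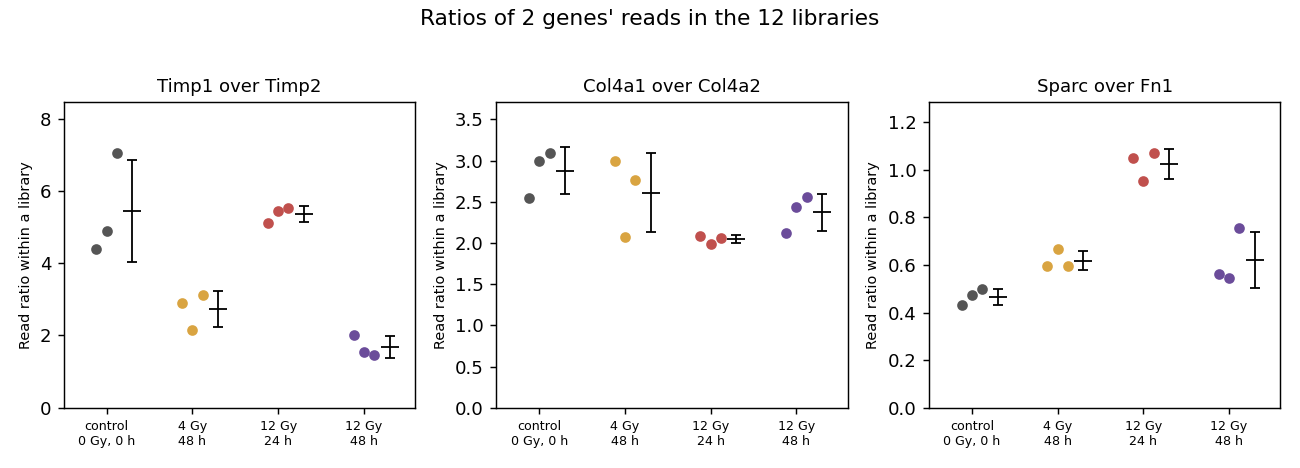
Reads of the first gene over reads of the second (vertical axes, linear from 0) in each library (points) of the 4 groups, with the group's mean and SD in black. Timp1 over Timp2 is at or below 3.13 in the 6 libraries taken at 48 h, Col4a1 over Col4a2 is 1.99 to 2.09 at 24 h after 12 Gy, and Sparc over Fn1 is highest at 24 h after 12 Gy.

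Timp3, whose product is held in the matrix rather than diffusing, lies at chr10:86300372-86349506 within the neuronal gene Syn3, which had 0 reads. Timp3 had 1, 5 and 6 reads in control, 0, 0 and 3 after 4 Gy, 0, 1 and 0 at 24 h and 2, 0 and 1 at 48 h after 12 Gy. Each irradiated group overlapped the control. From 12 reads in all controls, the summed level was lower by a ratio of 11.2 (95% counting interval 1.66 to 479) at 24 h, 3.54 (0.956 to 19.6) at 48 h and 3.78 (1.02 to 20.9) after 4 Gy. These intervals cover counting error only. In the fit without the filter on low counts the lower level of Timp3 did not pass, with an adjusted p of 0.055 at 24 h, 0.233 at 48 h after 12 Gy and 0.299 after 4 Gy.

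Col4a1 and Col4a2 encode the α1 and α2 chains that join in the main type IV collagen trimer of basement membranes. The genes lie head to head on chromosome 8, Col4a1 at chr8:11198423-11312826 on the reverse strand and Col4a2 at chr8:11312805-11449287 on the forward strand, and their annotated starts overlap by 22 bases. The 30 forward-strand bases across the shared start, chr8:11312801-11312830 in GRCm38.p6, are shown because the chains changed together. Capitals run from the Col4a2 start to the Col4a1 start, and hold a GC box. Whether the shared start had a part in those changes was not tested.
Col4a1 and Col4a2 shared start: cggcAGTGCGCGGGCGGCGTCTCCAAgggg

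Col4a1 had 24.1, 25.4 and 27.3 CPM in control, 30.4, 28.1 and 32.1 CPM after 4 Gy, 49.4, 54.8 and 42 CPM at 24 h and 33.2, 38.5 and 38.2 CPM at 48 h after 12 Gy. Col4a2 had 9.46, 8.45 and 8.84 CPM in control, 10.1, 13.6 and 11.6 CPM after 4 Gy, 23.6, 27.6 and 20.4 CPM at 24 h and 15.7, 15.8 and 14.9 CPM at 48 h after 12 Gy. On this scale the 4 groups did not overlap for either chain and stood in the same order, control, 4 Gy, 12 Gy at 48 h and 12 Gy at 24 h. As CPM without TMM scaling, Col4a1 at 24 h (47, 51.9 and 38.1) overlapped 48 h after 12 Gy (35, 40.5 and 40.4). At 24 h Col4a2 rose by 1.42 (SE 0.17, adjusted p = 5.23e-06), a fold of 2.67, and Col4a1 rose by 0.93 (SE 0.14, adjusted p = 3.06e-05), a fold of 1.91. These changes were 1.18 (adjusted p = 0.000202) and 0.70 (adjusted p = 0.00215) with known genes alone.

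At 48 h after 12 Gy both chains were nearer to control. Col4a2 was still higher, by 0.79 (SE 0.18, adjusted p = 0.00326), and with known genes alone by 0.60 (adjusted p = 0.029). Col4a1 rose by 0.52 (SE 0.14, adjusted p = 0.00879), but with known genes alone the change was 0.33 (adjusted p = 0.118). From 24 h to 48 h Col4a2 fell by 0.63 (SE 0.16, adjusted p = 0.00858). Col4a1 fell by 0.41 (SE 0.13, adjusted p = 0.026) over the same interval, a call that was lost with known genes alone (-0.36, adjusted p = 0.0548), with total-count scaling (-0.24, adjusted p = 0.195), without replicate 1 (-0.41, adjusted p = 0.0619) or replicate 2 (-0.41, adjusted p = 0.0591) of the 24 h group, and without replicate 1 of the 48 h group (-0.35, adjusted p = 0.111). After 4 Gy the changes against control were 0.24 (SE 0.14, adjusted p = 0.26) for Col4a1 and 0.40 (SE 0.19, adjusted p = 0.155) for Col4a2, which did not pass. Between the doses at 48 h the differences were 0.28 (SE 0.14, adjusted p = 0.25) and 0.39 (SE 0.18, adjusted p = 0.208).

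Col4a1 gave more reads than Col4a2 in all 12 libraries. Per kb of transcript the ratio was 2.81 ± 0.285 (SD, n = 3) in control, 2.55 ± 0.47 after 4 Gy, 1.99 ± 0.0497 at 24 h and 2.31 ± 0.224 at 48 h after 12 Gy. The plain read ratio was 2.55, 3 and 3.09 in control and 2.09, 1.99 and 2.06 at 24 h, and these groups did not overlap. The two-sided exact permutation p was 0.1, the smallest possible with n = 3, and 0.133 after adjustment over the 20 ratio tests. Since counting by strand is not stated, reads on the 22 shared bases could go to either gene.

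Fn1, at chr1:71585520-71653200, encodes fibronectin, the glycoprotein that links integrins to collagen. Fn1 had 267, 237 and 258 CPM in control, 323, 269 and 292 CPM after 4 Gy, 245, 287 and 249 CPM at 24 h and 312, 342 and 295 CPM at 48 h after 12 Gy. With the libraries scaled on all genes, both 48 h groups lay above the controls, and the 24 h group overlapped the controls. At 48 h after 12 Gy Fn1 rose by 0.32 (SE 0.11, adjusted p = 0.0313). That call was lost with known genes alone (0.13, adjusted p = 0.437), without control replicate 2 (0.30, adjusted p = 0.058) and without replicate 1 (0.34, adjusted p = 0.0569) or replicate 2 (0.30, adjusted p = 0.0739) of the 12 Gy group. At 24 h the change was 0.03 (SE 0.11, adjusted p = 0.821), and after 4 Gy it was 0.21 (SE 0.11, adjusted p = 0.183). Between 24 h and 48 h it was 0.28 (SE 0.11, adjusted p = 0.0528), and 0.33 (adjusted p = 0.0269) with known genes alone.

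Col1a1, at chr11:94936224-94953042, encodes the α1 chain of type I collagen, of which the trimer normally holds more copies than of the α2 chain. Col1a1 had 11, 6.4 and 8.84 CPM in control, 12.5, 15.8 and 8.63 CPM after 4 Gy, 7.7, 11.3 and 8.46 CPM at 24 h and 15.2, 13.2 and 16.7 CPM at 48 h after 12 Gy, from 25 to 64 reads per library. The 48 h libraries after 12 Gy lay above the control and 24 h libraries, and the 4 Gy libraries overlapped every other group. Col1a1 rose by 0.77 (SE 0.24, adjusted p = 0.0232) at 48 h after 12 Gy. That call was lost with known genes alone (0.59, adjusted p = 0.102), with DESeq2 (0.77, adjusted p = 0.0547), without control replicate 2 (0.63, adjusted p = 0.0773) and without replicate 1 (0.78, adjusted p = 0.0524) or replicate 3 (0.70, adjusted p = 0.0745) of the 12 Gy group. From 24 h to 48 h it rose by 0.72 (SE 0.25, adjusted p = 0.0364). That call held with total-count scaling (adjusted p = 0.011), with known genes alone (adjusted p = 0.026) and without the filter (adjusted p = 0.0497). The same call was lost with DESeq2 (0.62, adjusted p = 0.139), with RLE scaling (0.64, adjusted p = 0.0567) and with the replicate number as a block (0.72, adjusted p = 0.0516). It was at the threshold without replicate 2 at 24 h (adjusted p = 0.05 after rounding). Without each of 5 libraries in turn its adjusted p was 0.0621 to 0.157: replicates 1 and 3 at 24 h and replicates 1, 2 and 3 at 48 h.

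The partner chain Col1a2 was far more abundant than Col1a1. Per kb of transcript Col1a2 had 23.9 ± 4.8 (SD, n = 3) times the reads of Col1a1 in control, 24.1 ± 6.56 after 4 Gy, 39.4 ± 7.83 at 24 h and 18 ± 2.06 at 48 h after 12 Gy. Col1a2 rose by 0.81 (SE 0.12, adjusted p = 2.96e-05) at 24 h, from 182 ± 13.7 to 318 ± 40.7 CPM, whereas Col1a1 had a change of 0.06 (SE 0.26, adjusted p = 0.881) there. The type III fibril chain Col3a1 had 0 to 2 reads per library.

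Sparc, at chr11:55394500-55423183, encodes osteonectin, a collagen-binding glycoprotein secreted with newly made matrix. Sparc had 115, 112 and 129 CPM in control, 192, 179 and 174 CPM after 4 Gy, 256, 274 and 267 CPM at 24 h and 176, 186 and 223 CPM at 48 h after 12 Gy. Every irradiated library was above every control, the 24 h libraries were above all others, and the 48 h groups of the 2 doses overlapped. Sparc rose by 1.16 (SE 0.11, adjusted p = 3.85e-07) at 24 h, by 0.72 (SE 0.11, adjusted p = 0.000161) at 48 h after 12 Gy and by 0.62 (SE 0.11, adjusted p = 0.0012) after 4 Gy. All 3 rises passed in each of the 12 alternatives, with known genes alone at 0.93, 0.53 and 0.47. From 24 h to 48 h Sparc fell by 0.45 (SE 0.11, adjusted p = 0.00584), with total-count scaling -0.27 (adjusted p = 0.0602). Between the doses at 48 h it differed by 0.10 (SE 0.11, adjusted p = 0.651).

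Against Fn1 in the same library, Sparc had 0.43, 0.473 and 0.498 reads per Fn1 read in control and 1.05, 0.955 and 1.07 at 24 h after 12 Gy. The 48 h ratios were 0.595, 0.666 and 0.596 after 4 Gy and 0.563, 0.544 and 0.756 after 12 Gy, between the other groups and overlapping each other. The two-sided exact permutation p for 24 h against control was 0.1 with n = 3, the smallest possible, and 0.133 after adjustment.

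Thbs1, at chr2:118111876-118127133, encodes thrombospondin-1, an adhesive glycoprotein that can activate latent TGF-beta. It had 0, 1 and 0 reads in control, 3, 3 and 2 after 4 Gy, 3, 1 and 4 at 24 h and 1, 4 and 4 at 48 h after 12 Gy. Each irradiated group's lowest library matched or exceeded the highest control in reads. The summed level was higher than in control by a ratio of 10.2 (95% counting interval 1.41 to 445) at 48 h after 12 Gy, 8.57 (1.15 to 380) at 24 h and 8.47 (1.14 to 376) after 4 Gy. The 1 control read leaves the size of the ratio almost undetermined. In the fit without the filter on low counts Thbs1 passed as higher at 24 h (adjusted p = 0.0435), and not at 48 h after 12 Gy (adjusted p = 0.0649) or after 4 Gy (adjusted p = 0.128), and DESeq2 gave an adjusted p of 0.0943 at 24 h.

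Across the 12 libraries the 7 tested genes fell into a few patterns, given here as Pearson correlations of log2 CPM that describe libraries sharing groups, scaling and depth. Col4a1 and Col4a2 had a correlation of 0.95, and Sparc had 0.91 with Col4a1 and 0.90 with Col4a2. Timp2 had 0.77 with Col1a1 and 0.63 with Fn1. Timp1 had -0.62 with Timp2, -0.68 with Fn1 and -0.70 with Col1a1, and 0.14 with Sparc.

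Of 6574 known genes with a mean of at least 10 CPM, those most like each tested gene over the 12 libraries were then listed. Serpinb6a, an intracellular serine protease inhibitor, was most like Sparc (0.970), ahead of Hsd17b12 (0.965) and Igbp1 (0.963). Tmem256 (0.972), Nme1 (0.963) and Imp4 (0.957) were most like Timp1, and Rangap1 (0.941), Trim8 (0.938) and Xdh (0.936) were most like Timp2. Creg1 (0.967) and Anxa11 (0.946) were among the 3 most like Col4a1. Nefm (0.950), Cdc37 (0.944) and Smox (0.943) were most like Col4a2. For Fn1 the highest values were those of Rnf44 (0.914), Mustn1 (0.891) and Virma (0.886), and for Col1a1 those of Abca2 (0.927), Socs3 (0.893) and Plk1 (0.884). Serpinb6a overlaps other annotated genes on the opposite strand, so its count is uncertain.

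The other genes of the matrix were read from 8 lists of 189 genes in all, and few of them fell against control in any group. Each count is to be read beside the shares over all genes. At 24 h after 12 Gy 18.5% of all tested genes were higher and 29.4% lower, and at 48 h 12.9% and 20.2%. With known genes alone these shares were 9.15% and 7.91% at 24 h and 6.76% and 8.04% at 48 h. Of the basement membrane list, 12 of 24 genes were tested, and 3 were higher and 1 lower at 24 h and 3 higher and 0 lower at 48 h after 12 Gy. With known genes alone 1 was higher and 2 lower at 24 h and 2 higher and 1 lower at 48 h. Col7a1, the anchoring fibril collagen, rose from 1.57 ± 1.19 to 6.08 ± 1.92 CPM at 24 h (1.89, adjusted p = 0.00251) and to 5.44 ± 1.61 CPM at 48 h (1.73, adjusted p = 0.00879). Agrn, the heparan sulfate proteoglycan agrin, went opposite ways at the 2 times: it fell by 0.50 (adjusted p = 0.0251) at 24 h and rose by 1.06 (adjusted p = 0.000115) at 48 h, a difference between the times of 1.56 (adjusted p = 7.02e-06). Nid1, the laminin and collagen linker nidogen, rose by 0.65 (adjusted p = 0.0136) at 24 h, a change of 0.41 (adjusted p = 0.165) with known genes alone, and fell by 0.92 (adjusted p = 0.00325) between 24 h and 48 h. The list's median change was 0.14 at 24 h and 0.26 at 48 h, beside 0.23 and 0.20 for all known genes.

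Of the 4 tested other collagens out of 14, 3 rose at 24 h and 2 at 48 h after 12 Gy and none fell, with medians of 0.65 and 0.26. The fit to known genes alone left 2 higher at 24 h and 0 at 48 h. Col8a1, a short-chain collagen, rose by 1.01 (adjusted p = 0.000355) at 24 h and fell by 1.40 (adjusted p = 8.69e-05) from 24 h to 48 h. Of 17 tested genes that fold, modify or crosslink collagen, 6 rose at 24 h and 4 at 48 h and 0 fell, with medians of 0.35 and 0.27. P4hb, the β subunit of prolyl 4-hydroxylase, rose by 0.67 (adjusted p = 0.000144) at 24 h and by 0.73 (adjusted p = 0.000208) at 48 h. Loxl4, a lysyl oxidase that crosslinks collagen, rose by 1.05 (adjusted p = 0.00196) at 24 h and fell by 1.06 (adjusted p = 0.00422) by 48 h. These collagen-processing counts were 3 and 2 with known genes alone.

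Among matrix proteases, the enzymes that the inhibitors face, 13 of 28 were tested. At 24 h 7 were higher and 1 lower, and at 48 h after 12 Gy 5 were higher and 1 lower, or 2 and 2 and 3 and 1 with known genes alone. The list's medians were 0.49 and 0.10. Secreted metalloproteinases included Mmp2, Mmp3, Mmp9 and Mmp13, which had at most 3 reads in any library, and Mmp11, which had 20 to 48. Mmp14, the membrane-bound activator of pro-MMP2, had 26.6 CPM in control and 28.5 CPM at 48 h after 12 Gy. The cathepsin gene Ctsl rose from 1882 ± 258 to 4700 ± 868 CPM at 24 h (1.32, adjusted p = 5.53e-07) and to 3345 ± 409 CPM at 48 h (0.83, adjusted p = 0.000171). Plat, the tissue plasminogen activator, rose by 1.64 (adjusted p = 3.96e-05) and 1.62 (adjusted p = 0.000138) at those times. Adam9 fell by 1.06 (adjusted p = 3.21e-05) and Adamts1 rose by 0.90 (adjusted p = 0.00146) from 24 h to 48 h.

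Of 8 tested inhibitors outside the TIMP family, out of 17, 3 rose at 24 h and 4 at 48 h after 12 Gy and 0 fell, with medians of 0.14 and 0.42. With known genes alone 3 were higher at 24 h and 2 at 48 h. Serpinb9, an inhibitor of granzyme B, rose from 3.15 ± 1.4 to 8.39 ± 1.18 CPM at 24 h (1.37, adjusted p = 0.00107) and to 7.78 ± 1.41 CPM at 48 h (1.26, adjusted p = 0.00403), and by 1.27 (adjusted p = 0.00733) after 4 Gy, where it was 1.13 (adjusted p = 0.0647) with known genes alone. The fourth TIMP, Timp4, had 0 or 1 read.

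Of 14 tested matricellular proteins and glycoproteins, 9 rose at 24 h and 7 at 48 h after 12 Gy and 0 fell, or 5 and 3 with known genes alone, and the list's medians were 0.68 and 0.44. Spp1, which encodes osteopontin, rose from 764 ± 163 to 1446 ± 192 CPM at 24 h (0.92, adjusted p = 4.45e-05). Ccn2, the connective tissue growth factor, rose from 4.18 ± 1.81 to 14.4 ± 7.02 CPM at 48 h (1.74, adjusted p = 0.0029), and Tnxb, a tenascin, rose by 1.15 (adjusted p = 0.00128). Fbln2, a fibulin that binds basement membranes, rose by 0.67 (adjusted p = 0.000904) at 24 h and fell by 0.71 (adjusted p = 0.00146) by 48 h.

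Of 18 tested matrix receptors and adhesion genes, 11 rose at 24 h and 8 at 48 h after 12 Gy and 0 fell, with medians of 0.55 and 0.38. With known genes alone 8 were higher and 1 lower at 24 h, and 2 were higher at 48 h. Cd44, the hyaluronan receptor, rose from 124 ± 6.68 to 254 ± 17.4 CPM at 24 h (1.04, adjusted p = 1.15e-06) and fell by 1.10 (adjusted p = 4.22e-06) from 24 h to 48 h. The laminin receptor chain Itga6 rose by 1.62 (adjusted p = 5.99e-06) at 24 h and fell by 1.22 (adjusted p = 0.000251) by 48 h. Its partner Itgb4, at 3 to 25 reads per library, rose by 1.97 (adjusted p = 0.000916) at 48 h against control. The mean level of Itgb4 was 1.28 CPM in control, 3.53 CPM at 24 h and 5.17 CPM at 48 h after 12 Gy. Among 14 tested genes of TGF-beta supply and signalling, 4 rose at 24 h and 3 at 48 h and 0 fell, or 2 and 1 with known genes alone, and the medians of 0.32 and 0.29 were near the 0.23 and 0.20 of all known genes. Tgif1, a repressor of the pathway, rose by 1.53 (adjusted p = 0.000121) at 24 h, and the co-receptor Tgfbr3 rose by 1.16 (adjusted p = 0.000144).

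**Figure D4:**
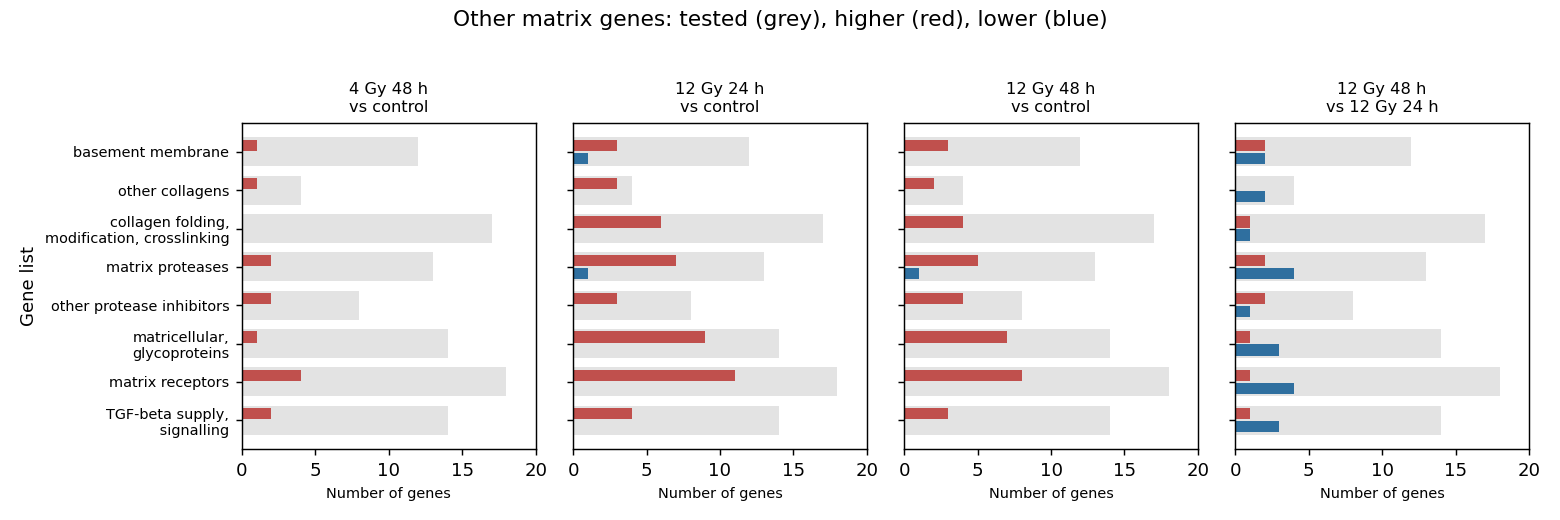
Number of genes (horizontal axes) in each of the 8 lists that were tested (grey), higher (red) or lower (blue) at an adjusted p under 0.05 in 4 comparisons, from the fit to all genes. Against control lower genes appear only in the basement membrane list at 24 h and in the matrix protease list at 24 h and 48 h after 12 Gy, and receptors had 11 of 18 higher at 24 h.

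The summed level of mesenchymal markers was highest in the same group as Sparc and the type IV collagens. Of the 18 fibroblast and mesenchymal markers, 13 or 14 had reads in each group, and their summed level was 903 to 1436 CPM in control, 1699 to 2458 after 4 Gy, 3216 to 3658 at 24 h and 1781 to 2573 at 48 h after 12 Gy. Vim, S100a4 and Col1a2 made up most of it: at 24 h Vim rose from 651 ± 265 to 2361 ± 203 CPM (1.86, adjusted p = 2.31e-06) and S100a4 from 218 ± 21.3 to 679 ± 34.7 CPM (1.64, adjusted p = 1.4e-05). Of the 9 tested, 6 were higher and 1 lower at 24 h and 3 were higher and 0 lower at 48 h after 12 Gy. The shares over all tested genes were 18.5% and 29.4% at 24 h and 12.9% and 20.2% at 48 h. With known genes alone 4 markers were higher and 1 lower at 24 h, and 2 were higher and 0 lower at 48 h. The median change of the 9 tested markers was 0.88 at 24 h and 0.07 at 48 h, beside 0.23 and 0.20 for all known genes. Pdgfrb went from 2.95 to 0.935 CPM and Twist1 from 19.8 to 18.1 CPM between control and 24 h. Lum, Dpt and Postn were at 0 in all libraries, and S100a4 overlaps another annotated gene. Of the 18 epithelial markers 9 to 12 had reads, and their sum was 11.5 to 16.1 CPM in control, 19.2 to 21.5 after 4 Gy, 22.6 to 31.2 at 24 h and 27.2 to 30.3 at 48 h after 12 Gy, mostly from Krt18, Krt20 and Krt7. Of the 3 tested, 1 was higher and 1 lower at 24 h, and 2 were higher and 0 lower at 48 h after 12 Gy. Krt18 was also highest at 24 h, rising from 3.29 ± 2.05 to 15 ± 2.52 CPM (2.14, adjusted p = 2.8e-05). Krt7 fell there by 1.09 (adjusted p = 0.0333). A peak at 24 h was thus not confined to mesenchymal markers. The endothelial sum was 4.55 to 18.1 CPM over all libraries, nearly all of it from Tie1, and the immune sum was 19 to 51.2 CPM, mostly from Cd68. Their part in the changes of the 9 genes was not tested, nor was that of the share of reads from new loci, which was lowest in the 24 h group.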

How the data were processed

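Total RNA of MODE-K cells was sequenced in 12 libraries, 3 per group, grouped by the labels. Per the submitters' processing notes, cutadapt 1.9 and FastQC were used. Libraries followed an Illumina protocol per the labels, but the name of the deposited table contains ont, so the platform was not settled. For the aligner, genome build, annotation and strandedness, nothing was given in the sources used. The deposited table holds whole-number read counts per gene and library, and CPM that the authors computed as counts over the column total, which recomputing matched within 4.78e-06. It also holds other values, the authors' deposited DESeq2 fold changes and adjusted p, not used here. Of 33636 lines, 11 were overflow of a long text cell and were left out.

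In R 4.3.3, edgeR 4.0.16 was run on the counts with its filterByExpr filter, TMM scaling and the quasi-likelihood F-test, with 1 mean per group over all 12 libraries. Tests were two-sided, with Benjamini-Hochberg adjustment over the 15086 genes tested and a threshold of 0.05. The SE was derived from the F statistic, and the biological coefficient of variation was 0.144. Tested on simulated data for 12 Gy at 48 h against control (15086 genes), the fit recovered 14% of 1.5-fold, 53.4% of 2-fold and 85.2% of 4-fold changes. Over 5 draws in all, 335, 335 and 330 genes were changed by these folds, and a draw gave 2 to 11 false calls. Far fewer genes changed per draw than the 4995 called in the data, so these shares do not give the sensitivity there. Alternatives were RLE and total-count scaling, known genes alone, no filter, DESeq2 1.42.0, the replicate number as a block, and leaving out each library. Lengths and positions are from the GENCODE M21 annotation of GRCm38, using 1 principal transcript per gene. Intervals and ratios of sparse reads cover counting error only.

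The 9 genes, the 8 matrix lists and the 4 marker lists were chosen with earlier results of these data known. Named were all 9 genes, up to 3 called genes per list and comparison by adjusted p, defining markers, and the 3 known genes most correlated with each tested gene; 1 gene so named is not reported here. The metalloproteinases, Timp4 and the remaining mesenchymal markers, Twist1 and Col3a1 among them, were named after their values were seen. Same-numbered libraries of different groups did not deviate together (mean r -0.0142 over 18 pairs, 0.00709 over 36 other pairs), so the numbers were not taken as pairs.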

Additional observations from a re-analysis of the deposited data

Results flagged for a closer look

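In 6 cases the change from control differed between irradiated groups by a direct test of the difference (edgeR quasi-likelihood, log2 scale). Timp1 was lower at 48 h than at 24 h after 12 Gy, by -1.40 (adjusted p = 1.02e-06), and lower after 12 Gy than after 4 Gy at 48 h, by -0.66 (adjusted p = 0.00849). Sparc, Col4a2 and Col4a1 were lower at 48 h than at 24 h after 12 Gy, by -0.45, -0.63 and -0.41, and Col1a1 was higher by 0.72. The Col1a1 difference rests on 29 to 64 reads per library.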

How the results depend on the processing

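Over 420 alternative values of the 7 tested genes, 374 kept direction and side of the threshold, 34 fell below it, 4 rose past it, 0 called values turned sign and 8 uncalled ones did. With known genes alone, the genes called numbered 1453 (against 4995), 1674 (against 7238) and 130 (against 2649) at 12 Gy 48 h, 12 Gy 24 h and 4 Gy, and 2330 (against 4825) for 48 h against 24 h; the 9 genes' counts called higher were 3, 3, 1 and 3. The called genes were 45.7%, 53.6%, 56.9% and 46.8% higher there, against 38.9%, 38.7%, 25.8% and 64.3%. Total-count scaling gave 49.3% higher at 12 Gy 48 h, 82.7% for 48 h against 24 h and 68.5% (against 46.8%) for 12 Gy against 4 Gy. With it 3 of the 9 were higher at 24 h, and 3 were higher and 2 lower for 48 h against 24 h. RLE scaling, DESeq2 and the replicate block each gave 0 higher for 48 h against 24 h, where Col1a1 was 0.72 (adjusted p = 0.0516) under the block, which changed no other call of the 9. DESeq2 gave 52.2% higher for that comparison. Without the filter 0 of the 9 were lower after 4 Gy, and 1113 genes (against 707) were called for 12 Gy against 4 Gy. Leaving out 1 library gave 1524 to 2980 called genes for 4 Gy against control (lowered most without control replicate 3 and 4 Gy replicates 1 and 2) and 0 to 1 of the 9 lower. It gave 77 to 431 genes and 0 to 1 of the 9 lower for 12 Gy against 4 Gy, with each of the 6 libraries moving the count and replicate 2 at 12 Gy giving the lowest. For 48 h against 24 h it gave 0 to 1 of the 9 higher, and for 12 Gy 48 h against control 4 to 6 higher. The causes were not tested, beyond there being fewer genes or libraries in those fits. Depth limits Timp3 and Thbs1, at 0 to 6 reads per library, and Col1a1.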
